A study of Mus musculus with 4 samples.

Results

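The Reg genes encode small secreted C-type lectins, and 6 of them (Reg1, Reg2, Reg3a, Reg3b, Reg3g and Reg4) were measured in the small intestine of HNF4 null and control mice by 7 of the probe sets on an Affymetrix array. They are 6 of 12393 mouse genes with a probe set of their own, and every probe set annotated with exactly 1 of these symbols is described. The family was picked on its null against control values in these same arrays, so those values are given as a description and no test is read from them. Each of the 4 animals was 1 month old and gave 1 array of total RNA. The null group was a male and a female, both carrying HNF4 loxP/- with villin cre, a recombinase gene driven by a promoter active in intestinal epithelium. The control female was HNF4 loxP/+ with villin cre. The control male was HNF4 loxP/- without Cre. All 4 animals thus carried a loxP allele, the 2 controls differed from each other in both sex and genotype, and the labels do not give the segment of intestine, the other cells in the tissue or the HNF4 paralogue that was deleted.

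HNF4 proteins are nuclear receptors of gut and liver epithelium that bind DNA at genes of absorption and metabolism. Reg3g and Reg3b are released into the lumen by enterocytes and Paneth cells, where Reg3g binds the peptidoglycan of Gram-positive bacteria and Reg3b acts on Gram-negative ones. Signals from microbes through MyD88, and the cytokine IL-22 through its receptor and STAT3, are known to raise both. Reg1 and Reg2 were first known from the exocrine pancreas, and Reg4 is made by enteroendocrine and mucus-secreting cells.

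Arrays were of like brightness, with median deposited intensities from 43.2 to 53.3, and the null male was the dimmest. Intensity has no physical unit, and the files carry no detection calls or saturation flags. The 4 probe sets of Hnf4a, 1 of the HNF4 genes, had mean null minus control differences of 0.08 to 0.32 on the log2 scale. The null male was above the control male on all 4 (0.23 to 0.62), and the null female was below the control female on 3 of them (−0.24, −0.16 and −0.07) and above on 1 (0.10). Whether these probe sets lie in the deleted part is not given in the sources used here, and they do not check the labels. Enterocyte markers were bright on every array. Over 7 genes they summed to 28131 and 26466 in the null male and female and 28827 and 29590 in the control female and male. Of the 7, 5 read lower in the null animals in both sexes, beside 24.2% of all genes tested. The other 2 read higher in both, beside 24.0%, and the median difference was −0.14. In bulk tissue, more cells of a type and more RNA per cell cannot be told apart.

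Of the family, 5 members and Reg3d lie side by side in the RefSeq gene order of chromosome 6, in the order Reg3b, Reg3d, Reg3a, Reg2, Reg1 and Reg3g, with 1 pseudogene between the last 2, while Reg4 lies on chromosome 3. Neighbours in this row did not share a direction, since Reg3a read lower in the null animals and Reg3b, Reg1 and Reg3g higher. The bases before the transcript starts of these 4 genes are shown because Reg3g, Reg3b and Reg3a have like sequences beside unlike values, with Reg1 for comparison. Each run holds the 250 bases before the start, from RefSeq on GRCm38.p6, 5′ to 3′ along the gene. Capitals mark the letters TATAAA of a TATA box on the gene's strand, the letters TTCNNNGAA of a STAT site and the letters CACCTG of an E-box. Reg3g is chr6:78468875-78469124 on the minus strand, Reg3b is chr6:78370635-78370884 on the plus strand, Reg3a is chr6:78380459-78380708 on the plus strand and Reg1 is chr6:78425733-78425982 on the plus strand.
Reg3g: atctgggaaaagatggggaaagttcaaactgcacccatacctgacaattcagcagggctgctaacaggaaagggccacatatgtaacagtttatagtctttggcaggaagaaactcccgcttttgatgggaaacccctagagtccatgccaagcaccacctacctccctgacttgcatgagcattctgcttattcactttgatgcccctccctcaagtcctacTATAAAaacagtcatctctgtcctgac
Reg3b: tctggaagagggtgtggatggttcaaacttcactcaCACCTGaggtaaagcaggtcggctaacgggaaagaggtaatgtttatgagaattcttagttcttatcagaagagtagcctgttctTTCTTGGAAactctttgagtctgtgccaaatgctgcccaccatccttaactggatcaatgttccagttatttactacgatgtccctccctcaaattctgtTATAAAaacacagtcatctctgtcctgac
Reg3a: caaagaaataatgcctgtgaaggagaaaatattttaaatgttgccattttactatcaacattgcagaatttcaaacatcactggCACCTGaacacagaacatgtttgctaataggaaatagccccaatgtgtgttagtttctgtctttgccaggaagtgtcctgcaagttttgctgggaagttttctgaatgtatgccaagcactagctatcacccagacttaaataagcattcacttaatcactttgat
Reg1: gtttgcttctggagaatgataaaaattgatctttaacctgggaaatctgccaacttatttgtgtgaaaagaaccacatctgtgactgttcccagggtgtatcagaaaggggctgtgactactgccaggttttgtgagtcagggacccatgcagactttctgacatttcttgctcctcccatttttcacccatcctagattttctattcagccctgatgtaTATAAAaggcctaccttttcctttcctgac

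Among the 4 Reg3 genes, the 6 pairs of these sequences aligned over 186 to 247 bases with an identity of 65.1% to 71.5%. Reg2 and Reg1 aligned over 226 bases with an identity of 69.0%. The 14 pairs across these groups or with Reg4 aligned over 3 to 40 bases, too few for an identity. Reg3g, Reg3b, Reg1 and Reg2 held TATAAA on the gene's strand between positions -30 and -22, counted back from the start. Reg3a, Reg3d and Reg4 did not hold it there within these windows. The Reg3a window ended with tcactttgat, letters that in Reg3g come before its TATAAA. The stretch of Reg3a that would line up with the Reg3g TATAAA was therefore not searched, and a lack of it in Reg3a is not shown. TATAAA was present on either strand in 12.4% of 32851 promoters of the same length. The STAT letters were found in Reg3b, as TTCTTGGAA from -129 to -121, and in Reg3d, as TTCCCAGAA from -238 to -230, against 7.02% of all promoters. Letters of a common HNF4 site, CAAAGTNCA, searched on both strands like the others, were in none of the 7 windows and in 1.19% of all promoters. The E-box letters, chosen after the sequences were seen, were in Reg3b, Reg3d, Reg3a, Reg2 and Reg4, against 17.2%. GATAA was in Reg3b, Reg1 and Reg4, against 22.6%. These matches are letters in a window and not shown sites of binding.

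Reg3g, the lectin against Gram-positive bacteria, read 4562 in the null male and 7228 in the null female against 3178 in the control female and 1881 in the control male. Where 4 array values follow without labels, they stand in this order, null male and null female against control female and control male. Both null values lay above both controls, and within each group the female was the higher. After normalization the mean of log2(intensity + 16) was 12.47 ± 0.48 for null and 11.24 ± 0.55 for control (SD, n = 2 each). The null minus control difference was 1.23 (SE 0.30), a 2.35-fold higher signal. It was 1.28 between the 2 males and 1.18 between the 2 females.

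Reg3b, its partner against Gram-negative bacteria, was measured by 2 probe sets. The brighter probe set, 1416297_s_at, read 6634 and 8221 in the nulls against 5151 and 4674 in the controls. Both null arrays were again above both controls. The log2 difference was 0.52 (SE 0.13), or 1.44-fold, from means of 12.82 ± 0.26 and 12.30 ± 0.14 (SD, n = 2 each). Its suffix marks probes that can match more than 1 transcript, so a share from another family member cannot be told apart. The other probe set, 1448290_at, read 3858 and 4328 against 2548 and 2754, so here too both nulls were the higher. It gave 0.65 (SE 0.12), or 1.57-fold. In males and females the differences were 0.44 and 0.60 on the first and 0.47 and 0.82 on the second. Array maxima were 10184 to 11137, so the first probe set read near the top of the scale, as did Reg3g in the null female (7228). In that range an array can understate a difference. That was not tested.

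Reg3a, a lectin of the same branch, was lower in the null animals. It read 695 in the null male and 540 in the null female against 951 in the control female and 1259 in the control male, with no overlap and the male the higher in each group. The means were 9.32 ± 0.27 and 10.11 ± 0.28 (SD, n = 2 each), a log2 difference of −0.78 (SE 0.21), so the controls were 1.72-fold brighter. The male and female differences were −0.79 and −0.77. Reg3g over Reg3a within an array, a ratio taken from the normalized values, was 2.61 and 3.68 in the nulls and 1.72 and 0.55 in the controls on the log2 scale. Since each probe set has its own sensitivity, only the change in this ratio has meaning, and it was 2.06 in males and 1.96 in females.

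Reg1, a lectin known as pancreatic stone protein, had the largest mean difference of the 7 probe sets, though Reg3g was above it between the males (1.28 against 0.78) and without the control female (1.62 against 1.05). It read 2176 in the null male and 3030 in the null female against 676 in the control female and 1253 in the control male, without overlap. The means were 11.35 ± 0.38 and 9.85 ± 0.64 (SD, n = 2 each), and the log2 difference was 1.5 (SE 0.31), or 2.83-fold. Its size was uneven between the sexes, at 0.78 (1.72-fold) in males and 2.22 (4.66-fold) in females. The female control, the animal with a wild-type allele and Cre, was the lowest array.

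Reg2, the close relative of Reg1, was dim, at 53.6 and 58.7 in the nulls and 63.7 and 51.4 in the controls. These intensities are close to the array medians and not shown to lie above background. The groups overlapped and the mean difference was 0.02 (SE 0.23). Reg4, a lectin that marks secretory cells of the gut, read 2556 in the null male, 1171 in the null female, 1360 in the control female and 2165 in the control male. The groups overlapped here as well, with a mean difference of 0.02 (SE 0.36), and both males were brighter than both females. For Reg2 and Reg4 the sign of the difference turned with single arrays left out, and for Reg2 also without scaling between arrays (−0.02).

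**Figure D1:**
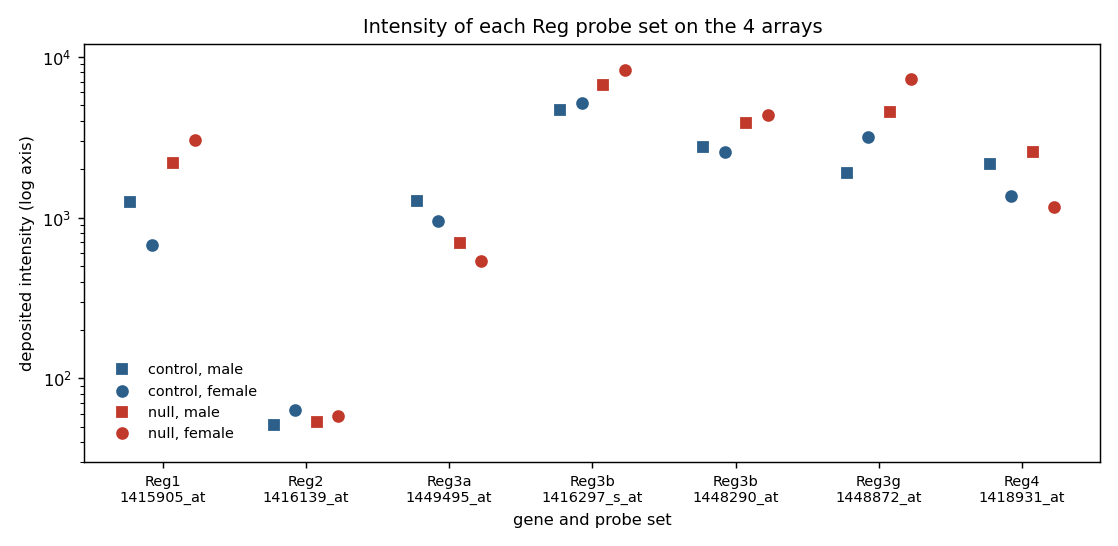
Deposited intensity (log axis) of the 7 Reg probe sets on each array, with blue for control, red for null, squares for males and circles for females. Both null arrays lie above both controls for Reg1, Reg3g and both Reg3b probe sets and below them for Reg3a, while for Reg4 the 2 males (2556 and 2165) lie above the 2 females (1171 and 1360).

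By gene, both null arrays lay above both controls for 3 of the 6 and below them for 1. Among all 15838 probe sets tested, 13.5% had both null arrays above both controls and 16.3% had them below. The median difference over the 6 genes was 0.27 and over all 9546 genes tested 0.001. In limma, 2 probe sets (0.0126%) passed an adjusted p of 0.05 between null and control, and 0 of the 7 Reg probe sets were among them, all 7 having an adjusted p of 1. An unadjusted p under 0.05 belonged to 5 of the 7 and to 480 of all. Nothing is read from these counts for genes picked on this contrast. Without the null male, the dimmest array, the differences were 1.76 for Reg1, 1.59 for Reg3g, 0.69 and 0.77 for the 2 Reg3b probe sets and −0.97 for Reg3a.

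**Figure D2:**
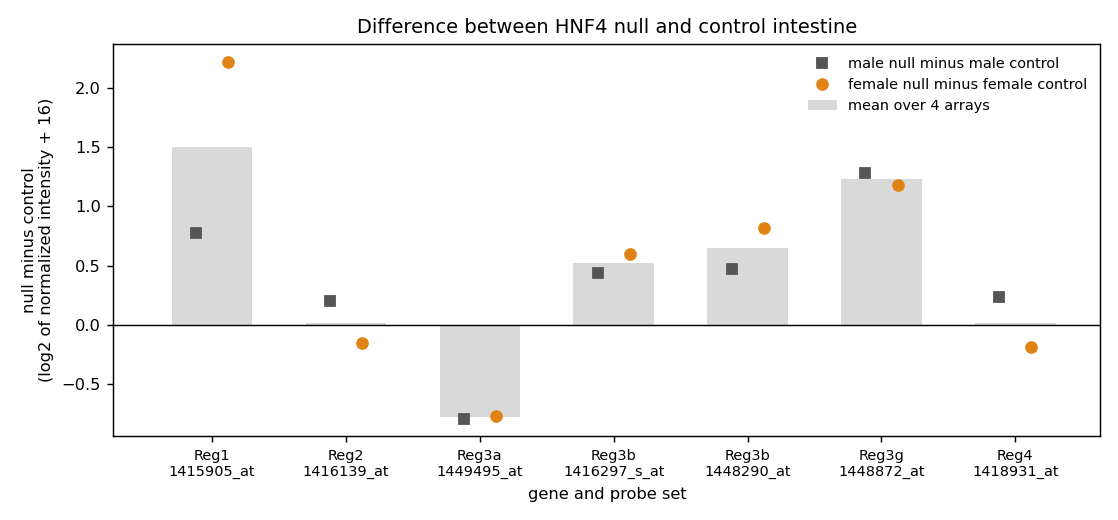
Null minus control difference on the scale of log2(normalized intensity + 16) for each Reg probe set, with the mean over 4 arrays as a bar and the male (square) and female (circle) differences as points. The 2 sexes gave near equal values for Reg3g (1.28 and 1.18) and Reg3a (−0.79 and −0.77), unequal ones for Reg1 (0.78 and 2.22) and opposite signs for Reg2 and Reg4.

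A comparison that did not choose the family is that of the 2 female with the 2 male animals. It was fitted in limma with group and sex together, and 84 of 15838 probe sets (0.53%) passed an adjusted p of 0.05. Of the 7 Reg probe sets 2 passed. Reg3g was higher in females by 0.73 (SE 0.10, 95% interval 0.52 to 0.94; limma adjusted p = 0.00754). The female was above the male by 0.68 in nulls and by 0.78 in controls. Reg4 was lower in females, with a difference of −0.86 (SE 0.13, 95% interval −1.15 to −0.57; limma adjusted p = 0.0197), and the female read below the male in each group, by values of −1.07 in nulls and −0.65 in controls.

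Both calls depended on the settings. Of 7 alternatives that allow a test, 4 kept each call, and the adjusted p in limma ranged from 0.000701 to 0.697 for Reg3g and from 0.000674 to 0.632 for Reg4. Scaling arrays by their medians gave 0.55 (limma adjusted p = 0.682) for Reg3g and −1.05 (limma adjusted p = 0.129) for Reg4. The fit has 1 residual degree of freedom and leans on a variance shared across probe sets. Sex cannot be told apart from genotype between the controls, nor from whatever the adjacent animal numbers stand for.

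The other Reg probe sets did not pass between the sexes. Reg3a was at −0.39 (95% interval −0.70 to −0.08, adjusted p = 0.424 in limma), with −0.39 in nulls and −0.40 in controls. The brighter Reg3b probe set was at 0.28 (0.08 to 0.47, adjusted p = 0.330 in limma) and the other at 0.07 (−0.17 to 0.32). Reg1 gave −0.19 (−0.74 to 0.37), with the female above the male by 0.53 in nulls and at −0.91 in controls. Reg2 gave 0.05 (−0.56 to 0.65). These intervals leave room for differences, so a lack of one is not shown. Pancreatic acinar markers, 16 of 21 on the array, summed to 3610 and 3304 in males, null first, and to 2205 and 2137 in females. Much of each sum came from 2 genes, so the sums do not stand for the whole list. Clps read 1416 and 1310 in males against 1012 and 742 in females, and Pnliprp2 705 and 831 against 219 and 442. Ctrb1 and Cuzd1 were the other way, at 0.05 and 0.14 female minus male. The part of acinar markers in the values of Reg4, Reg3a and Reg1 was not tested.

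**Figure D3:**
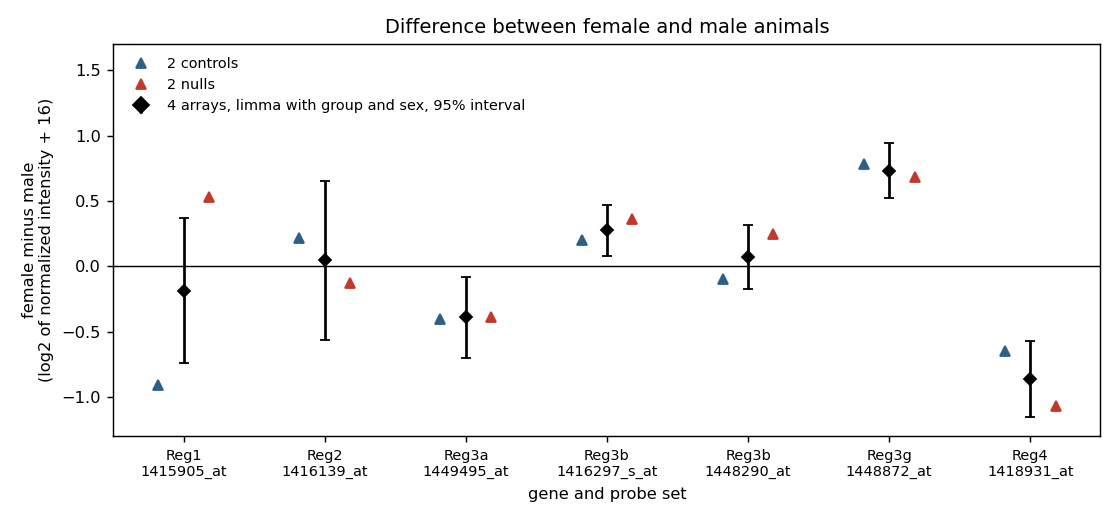
Female minus male difference on the scale of log2(normalized intensity + 16) for each Reg probe set, as the limma estimate over 4 arrays with its 95% interval (diamond) and as the single differences in controls (blue) and null animals (red). Reg3g lies above 0 and Reg4 below 0 in both groups, while Reg1 has opposite signs at −0.91 in controls and 0.53 in null animals.

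The remaining mouse family member, Reg3d, was dim, at 27.7 and 83.6 against 19.8 and 31.2. Its difference of 0.72 (SE 0.37) came from the null female, with 0.04 in males and 1.4 in females. Extl3, a proposed Reg receptor, differed by −0.24 (SE 0.23) on its brighter probe set, with intensities of 36.0 and 49.6 against 54.6 and 55.7. Its other probe set did not pass the filter on dim values.

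Genes around the family in the mucosa were read from lists written with earlier results of these data known. Of 27 genes of the IL-22, IL-6 and STAT3 pathway, 18 were bright enough to test, and 15 were above and 3 below 0. Of the 15, 10 were above 0 in both sexes. None passed in limma, where 0 had an unadjusted p under 0.05. The medians were 0.21 over both sexes, 0.01 in males and 0.21 in females, beside 0.001 over all genes. Of all 9546 genes tested, 50.3% were above 0, 24.0% were above 0 in both sexes and 24.2% below 0 in both. In limma, 480 of all 15838 probe sets had an unadjusted p under 0.05. The counts of each list are to be read against these values. Stat3, the transcription factor of the pathway, differed by 0.44 with values of 254 and 432 against 311 and 204, which overlap. The cytokine gene Il18 was at 0.47 and Il23a, a subunit of the cytokine IL-23, at −0.86. Bcl3, an IkB family member, was at 0.46, with 0.01 in males and 0.91 in females. Of 20 genes of microbial sensing, 11 were tested, with 9 above 0, 5 of them in both sexes. The median was 0.31 and none passed in limma (0 at an unadjusted p under 0.05). Cd14, the co-receptor for lipopolysaccharide, gave 0.83, mostly from the null female (341 against 111 to 118 elsewhere). The NF-kB inhibitor gene Nfkbia gave 0.53, the adaptor gene Myd88 0.35 and the kinase gene Irak1 0.31.

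Other secreted defence proteins went both ways, with 10 of 15 tested above 0, 7 of them in both sexes. The median was 0.22, with 0.27 in males and −0.05 in females. Only Pla2g2a, a phospholipase of Paneth cells, passed in limma, at −3.63 (adjusted p = 0.0277), with intensities of 292 and 550 against 4907 and 5767, and 4 of the 15 had an unadjusted p under 0.05. Its call held in 8 of 11 alternatives, with limma adjusted p from 1.57e-05 to 0.242 and differences from −4.06 to −3.2. It was lost without a trend in the prior (0.228), without the control female (0.0768) and without the control male (0.242). Mmp7, the Paneth cell protease, was at 1.22, Pglyrp1, a peptidoglycan binding protein like Reg3g in its ligand, at 0.35, and the cathelicidin gene Camp at −0.35. Other gut lectins had a median of 0.15 over 14 genes, 9 of them above 0 and 7 above 0 in both sexes. None passed in limma (1 at an unadjusted p under 0.05). Itln1, a Paneth and goblet cell lectin, gave 0.26, Lgals1 0.27, Clec7a 0.24 and Mbl1 0.19. Genes of epithelial growth and repair had a median of 0.22 over 12, with 10 above 0 and 6 above 0 in both sexes. None passed in limma (0 at an unadjusted p under 0.05). Igf1 was at 0.49, Hbegf at 0.43, Tff2 at 0.41 and Anxa1 at 0.27.

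**Figure D4:**
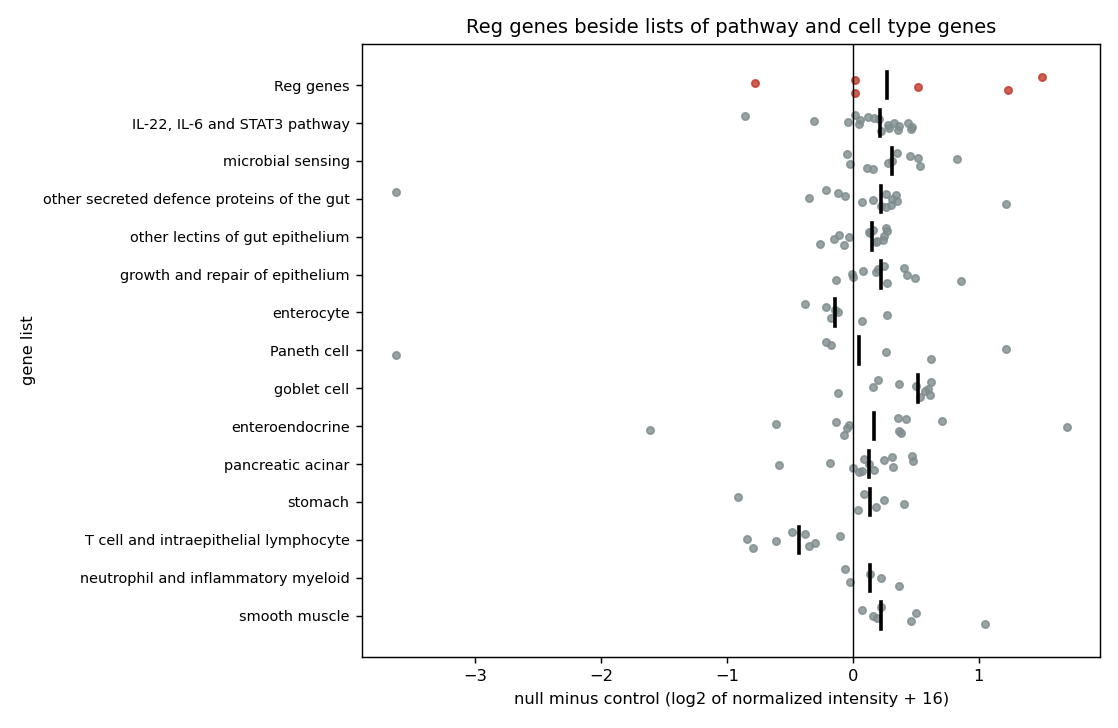
Null minus control difference on the scale of log2(normalized intensity + 16) for the 6 Reg genes (red) and the tested members of each gene list (grey), 1 point per gene and a black bar at the median. The Reg genes spread from −0.78 to 1.5, with goblet cell genes mostly above 0 and T cell genes below 0.

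Markers of goblet cells read higher and those of T cells lower in the null animals. Goblet cell genes were above 0 in 9 of 10, all 9 in both sexes, with a median of 0.51 and summed intensities of 26425 and 21579 against 18751 and 19361. Klk1 was at 0.61, Agr2 at 0.62, Spink4 at 0.60 and the goblet cell factor Spdef at 0.57. T cell genes were below 0 in 8 of 8, with a median of −0.43, summed intensities of 1038 and 869 against 1465 and 1472 over 9 genes, Cd7 at −0.84 and Ccl5 at −0.79. Paneth cell genes had a median of 0.05 over 6, with sums of 19315 and 18648 against 22395 and 23802 over 7 genes, and 3 genes were above and 3 below 0. Without Pla2g2a, left out after the values were seen, the sums over the other 6 were 19023 and 18098 against 17488 and 18035. Above 0 were Mmp7, Itln1 at 0.26 and the surface protein gene Cd24a at 0.62. Below 0 were Pla2g2a and the lysozyme genes Lyz1 at −0.21 and Lyz2 at −0.17, both named after their values were seen. Enteroendocrine genes had a median of 0.17 over 12, with sums of 2605 and 2809 against 2280 and 3708. Ghrl, the ghrelin gene, was at 1.7, Nts, the neurotensin gene, at −1.61 and Cck, the cholecystokinin gene, at 0.71. Gip, the incretin gene, was at −0.61, with −1.21 in males and −0.01 in females. In limma, Pla2g2a was the only gene of these 4 lists to pass. An unadjusted p under 0.05 in limma belonged to 3 of 10 goblet cell and 1 of 8 T cell genes. It also belonged to 5 of 6 Paneth cell and 3 of 12 enteroendocrine genes, beside 480 of all 15838 probe sets. Neutrophil and inflammatory myeloid genes summed to 470 and 400 against 444 and 403 over 8 genes, with S100a9 and Cxcr2 at or below 0 on at least 1 array. Pancreatic acinar genes had a median of 0.13 over 13 and did not separate the groups in their sums, and Ctrl and Gp2 were at or below 0 on at least 1 array. Stomach genes had a median of 0.13 over 6. Smooth muscle genes had one of 0.22 over 7, with −0.22 in males and 0.71 in females, and 2 were above 0 in both sexes. The part of goblet, T cell and other markers in the Reg values was not tested.

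Profiles over the 4 arrays, each centred on its own mean, were compared by their root-mean-square distance in log2 units. Such a distance is small where both genes vary little, as between Reg2 and Reg3b (0.304), the nearest pair of different genes. Reg3b and Reg3g were 0.425 apart, Reg2 and Reg4 0.454, Reg1 and Reg3g 0.612, and Reg3a was 1.15 from Reg3g and 1.20 from Reg1. The 2 Reg3b probe sets were 0.128 apart. Among 9539 other genes, Reg1 was nearest to Ghrl at 0.101, then Utf1 at 0.18 and Slc17a9 at 0.298. Ghrl was dim in the controls (6.57 and 27.7). Nearest to Reg3g were S100g, a calcium carrier of enterocytes, at 0.148, Cilp2 at 0.157 and Mptx1, a mucosal pentraxin, at 0.193. Mptx1 read 2279 and 2463 against 1434 and 697. Nearest to Reg3a were Aldh1a1, a retinal dehydrogenase, at 0.0461, Pon3, a lactonase, at 0.047 and Rdh9, a retinol dehydrogenase, at 0.0721. Aldh1a1 read 1592 and 1286 against 2134 and 2790. The nearest to Reg3b were Ptpru at 0.0233, Clic1 at 0.0292 and Marcksl1 at 0.0426. For Reg4 they were Tinf2, Trim2 and Bhlhe23, at 0.0271 to 0.0544, and for Reg2, which hardly varied, Sptbn1, Capza2 and Bcl6. With 4 arrays and so many genes, near profiles are a description only.

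**Figure D5:**
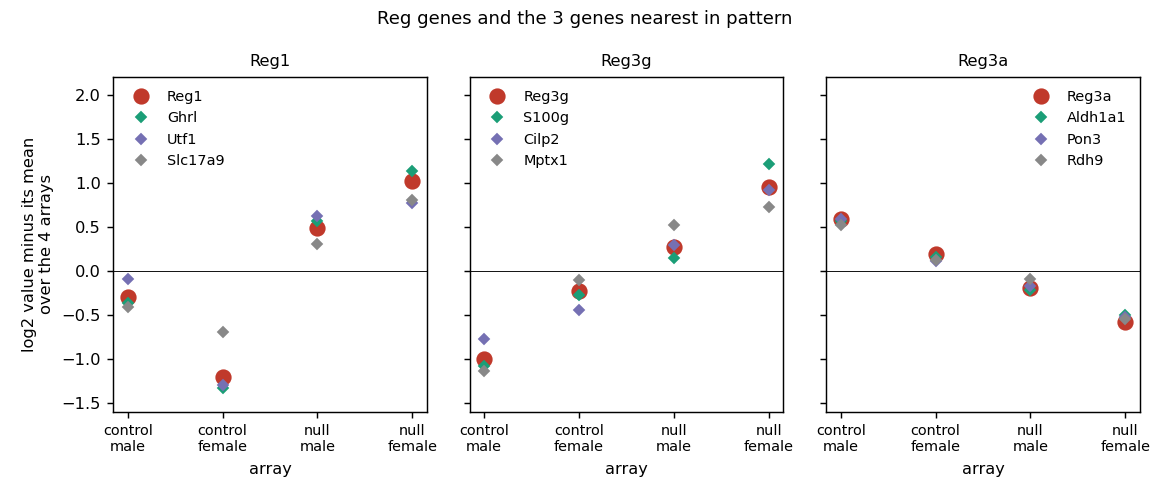
Log2 value minus its mean over the 4 arrays for Reg1, Reg3g and Reg3a (red circles) and the 3 genes nearest to each (diamonds), on the control male, control female, null male and null female. Reg1 is lowest in the control female, Reg3g lowest in the control male, and Reg3a highest in the control male.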

How the data were processed

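The authors deposited linear intensities, 1 value for each of 22690 probe sets on each array. A Qiagen kit and a biotin label were used for the RNA, per the labels. How the deposited intensities were computed (software, background correction, scaling) is not given in the sources used here. Names came from the annotation of the platform, and the symbols of all 7 Reg probe sets matched their Entrez identifiers in the RefSeq gene table of GRCm38.p6.

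After 64 control probe sets were left out, intensities were quantile normalized, raised to 0 where negative, and turned into log2(intensity + 16), which understates differences of dim probe sets. The dimmest 30% by mean were left out. All 7 Reg probe sets passed and 15838 were tested. The tests used limma (version 3.58.1, R version 4.3.3; lmFit, eBayes with an intensity trend, two-sided) and were adjusted over all 15838 by Benjamini-Hochberg, without covariates for null against control and with the group as a term for sex. The code was tested on simulated data. The SE is that of the moderated fit.

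A gene is represented by its brightest probe set. All Reg probe sets, Reg3d and Extl3 are named. From each list up to 4 genes are named, those with the largest difference of 1 sign in both sexes. In 1 of the sexes that difference could be near 0, as for Tff2 (0.73 in males and 0.08 in females). For each Reg gene the 3 nearest profiles are named. Members and lists were chosen with earlier results of these data known. Promoters were aligned globally with free end gaps. With 2 arrays a group, the number of animals limits the precision.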

Additional observations from a re-analysis of the deposited data

Results flagged for a closer look

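The null minus control difference had opposite signs in the 2 sexes for Reg2 (0.20 in the males and −0.15 in the females) and for Reg4 (0.24 in the males and −0.19 in the females). Each sex has 1 null and 1 control animal, so the contrast between the sexes was not tested for either gene.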

How the results depend on the processing

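Over 11 alternatives, the null minus control differences of Reg1, Reg3g, Reg3a and both Reg3b probe sets kept their sign. Dropping the filter or the trend, or adding sex as a block, cannot change these differences. Leaving out 1 array can hardly turn the sign where the groups do not overlap, so the kept sign is no support. With 1 array left out the differences ranged from 1.05 to 1.95 for Reg1, 0.84 to 1.62 for Reg3g and −0.99 to −0.58 for Reg3a. For Reg3b they ranged from 0.36 to 0.69 on 1416297_s_at and 0.52 to 0.77 on 1448290_at. Those of Reg2 ranged from −0.09 to 0.13 and of Reg4 from −0.51 to 0.57. The number of probe sets called between null and control was 2, but 29 with sex as a block, 1 without a trend in the prior and 0 to 35 with 1 array left out. It was 0 without the control male, where 205 had an unadjusted p under 0.05 in limma, 35 without the null male and 10 without the null female. Between the sexes the count was 84, but 183 without scaling, 132 with a pseudocount of 1, 168 without the filter, 3 without a trend and 6 without the group term. The female minus male difference turned its sign in Reg1 (−0.91 to 0.54), Reg2 (−0.13 to 0.22) and 1448290_at (−0.10 to 0.26) with 1 array left out, and in 1448290_at with median scaling (−0.13). With 1 array left out that fit has no residual degrees of freedom, so these are values without a test. The cause of these changes was not tested.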

Other observations

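Of the 13 pancreatic acinar genes tested, 2 passed between the sexes, beside 0.53% of all probe sets. The female read below the male in both groups for 7 of the 13. The share of all genes that did so was not computed, so nothing is read from this count. How these 2 calls depend on the settings was not examined, while the count over all probe sets fell from 84 to 3 without a trend in the prior. Rnase1, a secreted ribonuclease, read 253 and 289 in males, null first, against 104 and 71.2 in females, a female minus male difference of −1.58 (limma adjusted p = 0.0132). Pnliprp2, a lipase, read 705 and 831 in males against 219 and 442 in females, a difference of −1.32 (limma adjusted p = 0.0181). The stomach gene Gkn2 read 301 in the null male, 138 in the control male, 110 in the control female and below 0 in the null female.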
